A study of Mus musculus with 6 samples.

Results

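The enzymes described here protect cells from oxidants and change foreign and endogenous compounds into forms that can be removed. The list held 45 genes, and a gene was taken where the array had a probe set paired with its symbol alone, and of several such probe sets the brightest on average over the 6 arrays stood for the gene. This gave 41 of the 45 genes, out of 18193 genes measured in this way, and 39 of them passed the filter on low values that kept 13335 genes. Por, Prdx5 and Prdx6 had no such probe set, Prdx1 had 5 that were each shared with another symbol, and Gpx2 and Sod3 did not pass the filter.

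The data came from 6 Affymetrix whole-genome mouse 3' expression arrays, 1 per sample. Adult samples, named alveolar type II cells by the series, were flow-sorted lung cells positive for Lyz2 and EpCAM, with 3 labelled biological replicates. E18 samples, named bipotent progenitors, were flow-sorted lung cells of embryonic day 18 positive for Muc1 and Pdpn, also with 3 labelled biological replicates. Age and sorted population differ together and cannot be told apart, and strain, sex, adult age, treatment and the number of animals per sample are not given in the sources used here. Where samples did not come from separate animals, the p-values measure a spread that may be technical.

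Cytochrome P450 enzymes and flavin monooxygenases add oxygen to lipophilic compounds, which is known as phase I metabolism, and glutathione S-transferases and sulfotransferases attach a polar group, which is known as phase II. Peroxidases, peroxiredoxins, catalase and superoxide dismutases remove reactive oxygen, and of these the peroxidases and peroxiredoxins draw on glutathione and thioredoxin. Many of the genes described here are targets of the transcription factor Nrf2. In the mouse lung the club cells of the airways are known as the main site of P450 activity.

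Several measured facts bear on all values below. The means of Lyz2 and Epcam, by which adult cells were sorted, were lower in adult than in E18 cells. Lyz2 had log2 signals of 11.44, 11.28 and 11.13 in adult replicates 1, 2 and 3, against 14.13, 14.04 and 14.27 in E18 replicates 1, 2 and 3. Epcam had 7.85, 8.50 and 10.68 on the adult arrays, against 10.69, 11.31 and 9.26 on the E18 arrays. Those of the genes of the E18 sort were lower in adult cells too. Pdpn had 9.80, 9.38 and 9.88 on the adult arrays, against 11.65, 12.14 and 12.08 on the E18 arrays, and fell in adult (adjusted p = 0.00924). Muc1 had 7.92, 9.14 and 11.55 on the adult arrays, against 11.77, 11.94 and 11.10 on the E18 arrays, with a difference of -2.07 (adjusted p = 0.206). Sftpc, which marks alveolar type II cells, had 14.67, 14.50 and 14.52 on the adult arrays, against 14.05, 13.90 and 14.17 on the E18 arrays. Other markers of these cells differed from it. Of the 11 tested, Sftpc was the 1 with all adult arrays above all E18 arrays, and 3 had all below. The median difference, adult minus E18, over the 11 was -0.22. Adult replicate 3 stood apart, with correlations across genes of 0.777 and 0.828 with adult replicates 1 and 2, which correlated at 0.913 with each other. E18 replicates 1 and 2 correlated at 0.983, and E18 replicate 3 correlated at 0.928 and 0.921 with them. The poly-A spike-in probe sets, which report the labelling reaction, had median log2 signals of 8.10, 9.63 and 14.49 on adult replicates 1, 2 and 3, against 7.20, 6.60 and 13.99 on E18 replicates 1, 2 and 3, so that both replicates numbered 3 were high. Many values below are therefore given for each replicate, and the rest as differences between the groups or other summaries.

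Between adult and E18 cells, 2 of the 39 enzyme genes tested fell and 0 rose. The genes that fell were Gpx3, which encodes a secreted glutathione peroxidase, and Gstm5, a mu-class glutathione S-transferase. The test was limma's, fitted over all genes and called at a Benjamini-Hochberg adjusted p under 0.05, and differences are log2 signals, adult minus E18. Of all genes tested, 4.57% were called lower and 1.41% higher. At an unadjusted p under 0.05, 7 enzyme genes were higher and 3 lower, against 866 and 2017 of all 13335 genes tested. The median difference over the 39 genes was 0.075, against -0.17 over all genes, and quantile normalization or median centring moved the value over all genes to -0.05 or -0.02. Without adult replicate 3, limma called 8 enzyme genes lower and 2 higher, and of all 13335 genes it called 2069 lower and 701 higher. Without adult replicate 1 or 2 it called 1 enzyme gene lower, which was Gpx3, and 451 or 182 of all genes. Without E18 replicate 1, 2 or 3 it called 0 enzyme genes, and 45, 42 or 394 of all genes lower and 24, 24 or 111 higher. Adult arrays were all above E18 arrays for 10 of the 39 enzyme genes, against 10.1% of all genes, and all below for 2, against 18.8% of all genes. The 10 became 6 after quantile normalization, which removed Gpx1, Sod1, Sod2 and Txn1, and remained 10 after median centring. Adult arrays also differed more among themselves, with a median SD over the enzyme genes of 1.37 in adult and 0.34 in E18 samples (n = 3 each), against 0.62 in adult and 0.29 in E18 samples over all genes.

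**Figure D1:**
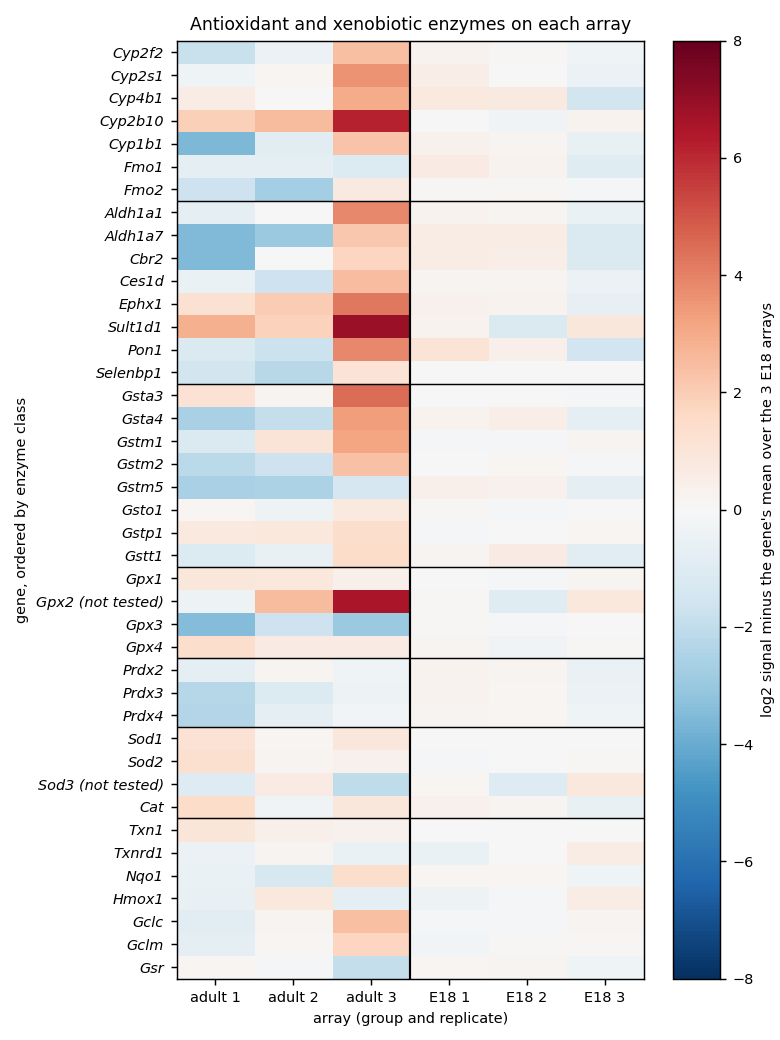
Log2 signal of 41 enzyme genes on each array, as the departure from the gene's mean over the 3 E18 arrays, with genes as rows in the order of their enzyme class and arrays as columns. The column of adult replicate 3 holds the highest values for most genes above Gpx1, and Gpx3 and Gstm5 are low on all 3 adult arrays.

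The plot of all enzyme genes by array shows that one adult array carried most of the high values. Adult replicate 3 was at least 4-fold above the mean of adult replicates 1 and 2 for 22 of the 39 genes, or 56.4%, against 10.0% of all genes, and at least 4-fold below it for 0 of the 39, against 3.31% of all genes. After quantile normalization the 22 became 21, and after median centring 19. This compares 1 array with 2 and has no test. In replicates 1 and 2 alone, with 2 adult arrays against 2 E18 arrays, limma called 11 of the 39 genes lower, or 28.2%, against 16.5% of all genes, and 1 higher, against 6.01% of all genes. The E18 arrays in that fit are the pair that correlated at 0.983.

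The promoters shown next are those of the 2 genes that fell, and of 2 enzyme genes that were high in adult replicate 3 and hold the core of the antioxidant response element, the sequence that Nrf2 is known to bind. They are RefSeq sequences of assembly GRCm38.p6, from 250 bases before to 50 bases after the gene's start, all on the plus strand. Capitals mark the letters TGACNNNGC, searched on both strands. The first base of the match lay 42 bases before the start in Gstm5, 121 in Gsta3 and 134 in Gclm, where it was on the minus strand, and Gpx3 has no match in this window.
Gpx3, chr11:54902604-54902903: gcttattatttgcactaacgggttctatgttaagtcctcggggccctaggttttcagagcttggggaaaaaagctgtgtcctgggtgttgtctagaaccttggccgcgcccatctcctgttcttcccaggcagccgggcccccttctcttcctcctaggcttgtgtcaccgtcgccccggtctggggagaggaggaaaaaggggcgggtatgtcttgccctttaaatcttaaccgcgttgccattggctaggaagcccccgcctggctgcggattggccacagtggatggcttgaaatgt
Gstm5, chr3:107895604-107895903: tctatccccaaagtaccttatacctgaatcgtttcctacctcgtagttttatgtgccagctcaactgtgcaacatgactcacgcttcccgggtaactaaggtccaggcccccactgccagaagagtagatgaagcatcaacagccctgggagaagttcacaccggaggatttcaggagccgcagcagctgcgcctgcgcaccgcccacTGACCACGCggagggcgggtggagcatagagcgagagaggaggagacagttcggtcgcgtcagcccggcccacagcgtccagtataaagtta
Gsta3, chr1:21240335-21240634: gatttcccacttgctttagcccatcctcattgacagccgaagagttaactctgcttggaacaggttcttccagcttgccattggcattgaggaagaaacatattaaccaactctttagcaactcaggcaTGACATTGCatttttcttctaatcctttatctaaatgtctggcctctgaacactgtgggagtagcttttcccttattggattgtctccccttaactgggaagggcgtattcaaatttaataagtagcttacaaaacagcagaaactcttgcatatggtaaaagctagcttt
Gclm, chr3:122245307-122245606: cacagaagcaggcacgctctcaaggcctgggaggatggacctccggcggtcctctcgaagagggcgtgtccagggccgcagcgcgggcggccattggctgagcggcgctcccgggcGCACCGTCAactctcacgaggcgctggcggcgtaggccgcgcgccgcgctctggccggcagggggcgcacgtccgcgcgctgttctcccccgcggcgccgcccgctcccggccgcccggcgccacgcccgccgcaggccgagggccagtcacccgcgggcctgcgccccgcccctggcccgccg
The core was in 6 of the 45 promoter windows found for 37 of the 45 genes, or 13.3%, which is near the 12.4% of all 32851 windows. The genes were Gclm, Gsta3, Gstm5, Prdx1, Sod1 and Txnrd1. Prdx1 was not measured, and the values of the others below differ among themselves. The core GCGTG of sites for the aryl hydrocarbon receptor, searched on both strands, was in 51.1% of the windows of the enzyme genes and 32.4% of all windows. That is 23 of 45 windows, from 18 of 37 genes. Overlapping windows of Gpx4 and of Gstm1 hold the same matches, and a share by gene was not counted over all genes. These matches describe the letters only.

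None of the 7 P450 and flavin monooxygenase genes measured passed the test. Adult replicate 3 was above both other adult arrays for 6 of them, by 4-fold or more for all 6, and the seventh, Fmo1, was not. Cyp2f2, the club cell enzyme known for activating naphthalene, had log2 signals of 10.33, 11.61 and 14.51 in adult replicates 1, 2 and 3, against 12.40, 12.16 and 11.73 in E18 replicates 1, 2 and 3. Adult replicates 1 and 2 thus lay below every E18 array and adult replicate 3 above them all, and the mean difference was 0.06 (SE 0.94, adjusted p = 0.977). Cyp2s1, an epithelial P450, had 9.16, 9.64 and 13.10 on the adult arrays, against 10.04, 9.43 and 9.00 on the E18 arrays. Cyp4b1, a P450 of the airway, had 11.55, 11.01 and 13.92 on the adult arrays, against 11.74, 11.67 and 9.50 on the E18 arrays. Only adult replicate 3 lay above the E18 arrays for both genes, and E18 replicate 3 was the low E18 array for both.

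Cyp2b10, a P450 inducible through the receptor CAR in liver, differed from these in that its groups did not overlap. It had 8.60, 9.25 and 12.85 on the adult arrays, against 6.70, 6.45 and 6.99 on the E18 arrays. Every adult array was above every E18 array, with adult replicate 3 15.2-fold above the mean of the other adult arrays. The difference of 3.52 (SE 1.01) had an adjusted p of 0.0933 and did not pass. In replicates 1 and 2 alone the difference was 2.35 (adjusted p = 0.0129), so the gene rose in that fit, and it was the 1 enzyme gene called higher there. Its other 2 probe sets gave differences of 3.46 and 2.81, and its probe set is of a kind that can match related transcripts.

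Cyp1b1, which oxidizes polycyclic hydrocarbons and estrogens, had 3.50, 6.17 and 9.38 on the adult arrays, against 7.45, 7.35 and 6.51 on the E18 arrays. The lowest of its adult values was below the array's floor, the 40th percentile of all probe sets. Fmo2, the flavin monooxygenase typical of lung, had 10.19, 9.14 and 12.58 on the adult arrays, against 11.97, 11.94 and 11.69 on the E18 arrays. It fell in replicates 1 and 2, where the difference was -2.28 (adjusted p = 0.0220), and its adult replicate 3 was above all E18 arrays. Fmo1 was 7.76, 7.76 and 7.48 on the adult arrays, against 9.22, 8.80 and 7.60 on the E18 arrays. It was the 1 gene of this class that was not high in adult replicate 3, and it also fell in replicates 1 and 2, by 1.25 on the log2 scale (adjusted p = 0.0354).

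All 8 genes of aldehyde, carbonyl, ester, epoxide and sulfate metabolism were at least 4-fold higher in adult replicate 3 than in the mean of adult replicates 1 and 2, and 0 passed the test over all arrays. Their median difference was -1.59 in replicates 1 and 2 and 3.88 between the arrays of replicate 3. Aldh1a1, a retinal and aldehyde dehydrogenase, had 10.00, 10.71 and 14.56 on the adult arrays, against 11.01, 10.94 and 10.15 on the E18 arrays. Aldh1a7, its close paralog, had 8.27, 8.81 and 13.95 on the adult arrays, against 12.35, 12.37 and 10.60 on the E18 arrays. Adult replicates 1 and 2 were below all E18 arrays for Aldh1a7, and adult replicate 3 was 42.7-fold above their mean. Aldh1a7 fell in replicates 1 and 2 by 3.83 (adjusted p = 0.00492), and probes on such paralogs may share transcripts.

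Cbr2, a carbonyl reductase abundant in lung, had 9.32, 12.79 and 14.54 on the adult arrays, against 13.46, 13.36 and 11.69 on the E18 arrays. Here adult replicates 1 and 2 also differed widely from each other. Ces1d, a carboxylesterase, had 11.30, 10.18 and 14.31 on the adult arrays, against 12.11, 12.06 and 11.41 on the E18 arrays. Adult replicates 1 and 2 were below every E18 array for Ces1d. Pon1, a paraoxonase that hydrolyses lactones and organophosphates, had 7.97, 7.46 and 12.99 on the adult arrays, against 10.27, 9.58 and 7.59 on the E18 arrays. Its difference was 0.32 over all arrays (adjusted p = 0.919) and -2.21 in replicates 1 and 2 (adjusted p = 0.0170), where it fell. Selenbp1, a selenium-binding methanethiol oxidase, had 11.98, 11.18 and 14.52 on the adult arrays, against 13.42, 13.42 and 13.42 on the E18 arrays. It fell in replicates 1 and 2 by 1.84 (adjusted p = 0.0265), and its adult replicate 3 was above all E18 arrays.

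Ephx1, the microsomal epoxide hydrolase, and Sult1d1, a sulfotransferase of catecholamines, were the 2 genes of this class with no overlap between the groups. Ephx1 had 9.79, 10.56 and 12.77 on the adult arrays, against 8.91, 8.82 and 7.90 on the E18 arrays. The difference was 2.49 (SE 0.74, adjusted p = 0.102), and leaving out adult replicate 3 gave 1.63 (adjusted p = 0.0358). Sult1d1 had 6.97, 5.96 and 11.03 on the adult arrays, against 4.38, 2.93 and 5.00 on the E18 arrays. All E18 values were under the floor, so adult cells were at least 4.46-fold higher, taking the higher of the floor and the value on each E18 array (adjusted p = 0.134). Without adult replicate 3 this limit was 1.55-fold. Neither gene passed the test, although every adult array was above every E18 array for both. With replicate 3 of both groups against replicates 1 and 2 as a block, chosen after seeing the data, Sult1d1 was called higher (adjusted p = 0.0463), as was Cyp2b10 (adjusted p = 0.0420).

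**Figure D2:**
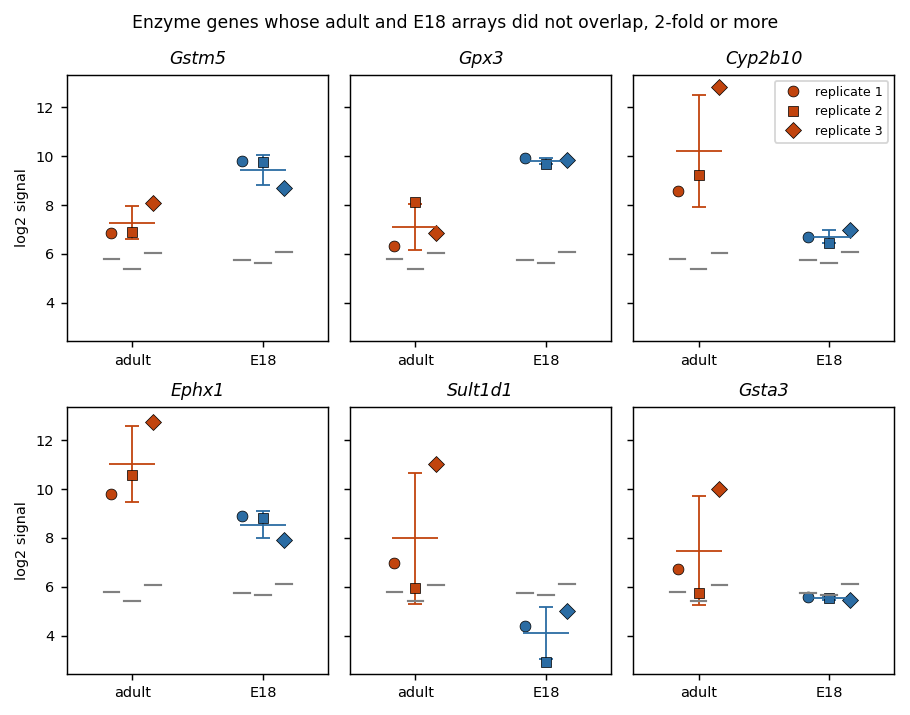
Log2 signal of the 6 enzyme genes whose adult and E18 arrays did not overlap and whose group means differed by 2-fold or more. Symbols are replicates, horizontal lines with bars are group means ± SD (n = 3 each), and short grey lines mark each array's floor; Gstm5 and Gpx3 are lower on all adult arrays, and the other 4 have their highest value on adult replicate 3.

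The glutathione S-transferases divided. Of 8 genes 1 fell and 0 rose, and 5 were at least 4-fold higher in adult replicate 3 than in the mean of the other adult arrays. Gstm5, whose promoter is printed above, had 6.85, 6.92 and 8.07 on the adult arrays, against 9.82, 9.76 and 8.71 on the E18 arrays. The plot of genes without overlap shows each adult array below each E18 array. The difference of -2.15 (SE 0.49) is 4.45-fold, with an adjusted p of 0.0472, and the call was lost in 12 of 17 alternative fits, among them the fit without any 1 array other than adult replicate 3 (adjusted p between 0.0531 and 0.218). In replicates 1 and 2 the difference was -2.91, and between the arrays of replicate 3 it was -0.65.

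Gsta3, an alpha-class transferase, had 6.71, 5.75 and 10.00 on the adult arrays, against 5.57, 5.56 and 5.45 on the E18 arrays. All E18 values were under the floor, so that adult cells were at least 3.15-fold higher (adjusted p = 0.309), and without adult replicate 3 at least 1.32-fold. Gsta4, which conjugates the lipid peroxidation product 4-hydroxynonenal, had 6.85, 7.54 and 12.83 on the adult arrays, against 9.74, 9.96 and 8.68 on the E18 arrays. Adult replicate 3 was 49.8-fold above the mean of adult replicates 1 and 2, both of which were below every E18 array. Gstm1 had 8.37, 10.60 and 12.67 on the adult arrays, against 9.47, 9.37 and 9.78 on the E18 arrays. Gstm2 had 6.92, 7.41 and 11.39 on the adult arrays, against 9.06, 9.18 and 8.90 on the E18 arrays. For Gstm1 adult replicate 2 was also above the E18 arrays, while for Gstm2 only adult replicate 3 was. Gstt1, of the theta class, had 8.38, 8.85 and 10.94 on the adult arrays, against 9.65, 10.08 and 8.60 on the E18 arrays. Gsta4, Gstm2 and Gstt1 fell in replicates 1 and 2, by 2.66, 1.96 and 1.25 on the log2 scale, and the mu-class genes are close paralogs whose probes may share transcripts. Gsto1, of the omega class, and Gstp1, of the pi class, varied less, with an adult SD of 0.59 and 0.36. Gstp1 was higher on every adult array, at 12.67, 12.74 and 13.32, against 11.81, 11.88 and 12.05 on the E18 arrays, with a difference of 0.99 (SE 0.28, adjusted p = 0.0927).

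Among the glutathione peroxidases, Gpx3 fell. It had 6.33, 8.14 and 6.86 on the adult arrays, against 9.93, 9.68 and 9.85 on the E18 arrays. No adult array reached the E18 range, and the gene was low in adult replicate 3 as in the others. The difference was -2.71 (SE 0.49, adjusted p = 0.0230), or 6.55-fold. It was -2.57 in replicates 1 and 2 and -2.99 between the arrays of replicate 3. The call was lost in 5 of 17 alternative fits (adjusted p between 0.0510 and 0.127), namely without any 1 of the E18 arrays, with the replicate number as a block, and with E18 replicates 1 and 2 averaged. Gpx1, the cytosolic selenoenzyme, and Gpx4, which reduces lipid hydroperoxides, were higher on all 3 adult arrays. Their group means differed by 0.72 and 0.91, without passing (adjusted p = 0.179 and 0.156). A second probe set of Gpx4 went the other way, at -0.22. Gpx2, known from gut epithelium, was not tested. It was at 4.62, 7.56 and 11.53 on the adult arrays, against 5.12, 4.06 and 5.89 on the E18 arrays, which were all under the floor. Its adult replicate 3 was 43.5-fold above the mean of the other adult arrays.

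The other removers of reactive oxygen did not pass the test over all arrays. Prdx3, the mitochondrial peroxiredoxin, had a difference of -1.27 (SE 0.50, adjusted p = 0.198) and fell in replicates 1 and 2 by 1.93 (adjusted p = 0.0384). Prdx4, of the endoplasmic reticulum, had a difference of -1.09, and the cytosolic Prdx2 one of -0.28. Sod1 and Sod2, the cytosolic and mitochondrial superoxide dismutases, were above the E18 range on all adult arrays. Their group means differed by 0.75 and 0.60 (adjusted p = 0.229 and 0.343), but the other probe sets of Sod2 gave negative differences. The second probe set of Sod1 gave a difference of 0.36, with overlap between the groups. Cat, or catalase, had a difference of 0.70 with overlap between the groups. The second probe set of Cat disagreed, with 9.68, 10.83 and 12.43 on the adult arrays, against 11.74, 11.82 and 10.91 on the E18 arrays, a difference of -0.51. By the probe sets chosen, adult replicate 3 was at least 4-fold above the mean of the other adult arrays for 0 of these 6 genes, but by the second probe set of Cat it was 2.18 above that mean on the log2 scale. Sod3, the extracellular dismutase, was under the floor on 2 adult arrays and 3 E18 arrays.

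Genes of glutathione synthesis and reduction and of the thioredoxin system did not pass either, and they divided by adult replicate. Gclc, the catalytic subunit of the enzyme that begins glutathione synthesis, had 9.27, 10.40 and 12.58 on the adult arrays, against 10.05, 10.11 and 10.40 on the E18 arrays. Gclm, its modifier subunit, had 9.29, 10.17 and 11.80 on the adult arrays, against 9.90, 10.17 and 10.21 on the E18 arrays. Nqo1, a quinone reductase, had 5.70, 4.97 and 7.63 on the adult arrays, against 6.42, 6.38 and 5.90 on the E18 arrays. Adult replicate 3 was the high array for all 3 genes, adult replicate 2 only equalled the highest E18 value of Gclc, and Nqo1 was under the floor on 2 adult arrays and 1 E18 array. Gsr, which regenerates glutathione, had 11.49, 11.27 and 9.42 on the adult arrays, against 11.48, 11.59 and 10.98 on the E18 arrays. It was low in adult replicate 3, where Gclc and Gclm were high. Txnrd1 and Hmox1, a thioredoxin reductase and the inducible heme oxygenase, were also below both other adult arrays in adult replicate 3. Their differences over all arrays were -0.27 and -0.16. Txn1, or thioredoxin, was higher on all adult arrays, with a difference of the means of 0.57 (adjusted p = 0.271). Its second probe set was lower in adult by 0.29 on the log2 scale.

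Set side by side, the difference between adult and E18 cells had opposite signs in replicates 1 and 2 and in replicate 3 for 23 of the 39 enzyme genes. It was negative in replicates 1 and 2 and positive in replicate 3 for 21 of them, against 28.8% of all genes, and the other way for Txnrd1 and Hmox1. The median difference over the enzyme genes was -0.43 in replicates 1 and 2 and 1.59 between the arrays of replicate 3, against -0.32 and 0.01 over all genes. Gpx3, Gstm5, Gsr and Fmo1 were negative in both. The main fit did not pair samples by replicate number, and the difference within replicate 3 is 1 array against 1, with no test.

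**Figure D3:**
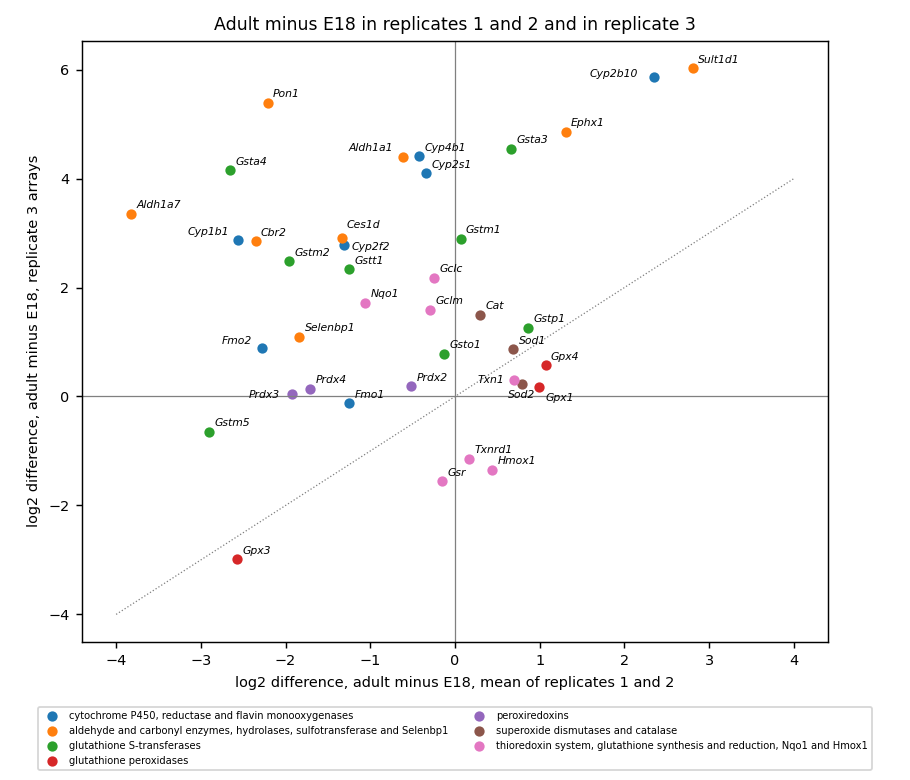
Log2 difference, adult minus E18, of the 39 enzyme genes tested, with the mean of replicates 1 and 2 on the x axis and the arrays of replicate 3 on the y axis, coloured by enzyme class; the dotted line marks equal values. The 21 genes in the upper left are lower in adult replicates 1 and 2 and higher in adult replicate 3, and Gpx3 lies low on both axes.

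Markers of other cells moved with the same array. Among the airway markers, 7 of 9 club cell genes tested and 9 of 9 ciliated cell genes were at least 4-fold higher in adult replicate 3 than in the mean of adult replicates 1 and 2, as were 6 of 6 general epithelial genes. The summed signal of the 12 club cell genes was 18367, 13200 and 98640 in adult replicates 1, 2 and 3, against 22318, 21683 and 18022 in E18 replicates 1, 2 and 3. That of the 9 ciliated cell genes was 2283, 7066 and 43590 on the adult arrays, against 4564, 4410 and 3076 on the E18 arrays. Adult replicate 3 was the array with the highest sum of both lists. Scgb1a1, the main secretory protein of club cells, had log2 signals of 13.74, 13.54 and 15.03 on the adult arrays, against 12.17, 12.09 and 13.19 on the E18 arrays, and was thus also well above the floor on every array. It was 2.62-fold higher in adult replicate 3 than in the other adult arrays, and so not among the 7. In replicates 1 and 2 its difference was 1.51, unlike the median of -2.39 over the 9 club cell genes tested.

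The leukocyte and mesenchymal markers moved differently. All 13 leukocyte genes were lower in adult replicate 3 than in both other adult arrays, and their sum was 152029, 103074 and 47995 on the adult arrays, against 30344, 27506 and 37153 on the E18 arrays. Mesenchymal genes fell in adult for 10 of 13, with sums of 22318, 18532 and 8451 on the adult arrays, against 85337, 85795 and 58114 on the E18 arrays. These sums were lower on each adult array than on any E18 array. Gene by gene, all adult arrays were below all E18 arrays for 11 of 13 mesenchymal, 8 of 9 alveolar type I, 9 of 12 endothelial and 4 of 5 mesothelial markers, as for Gpx3 and Gstm5, against 18.8% of all genes. The part of these cells in the values of the enzyme genes was not tested. In sorted bulk samples, fewer cells of a type and less RNA per cell cannot be told apart.

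**Figure D4:**
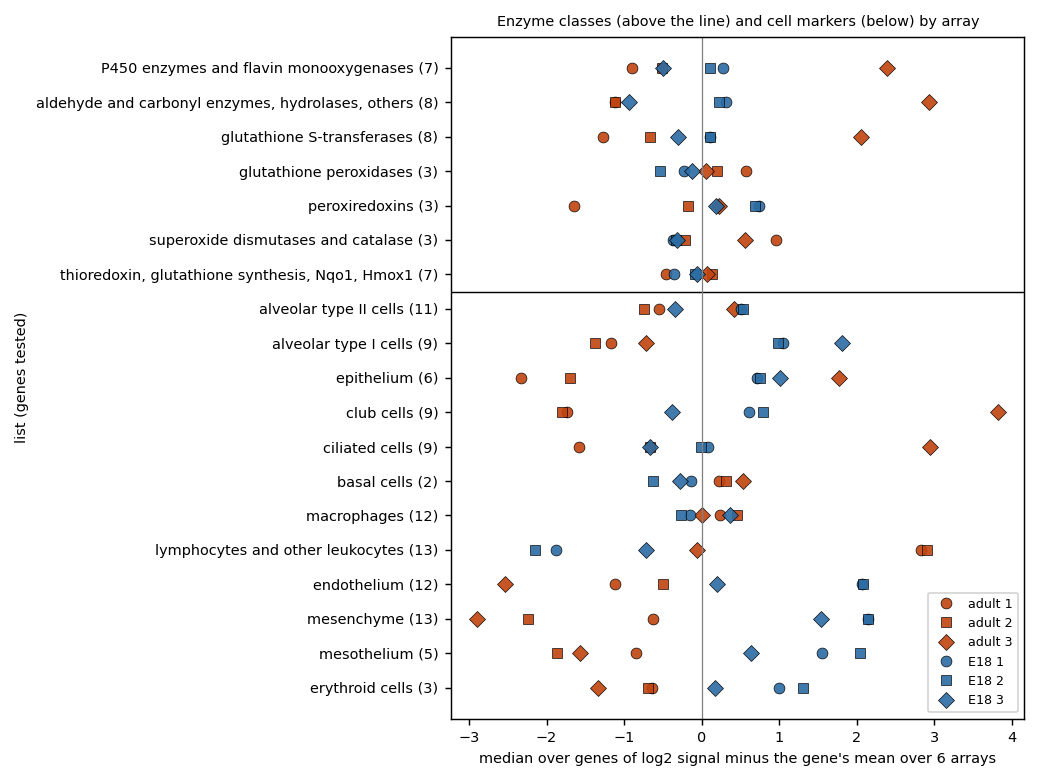
Median over the genes tested in each list of the log2 signal's departure from the gene's mean over the 6 arrays, with enzyme classes above the line, cell type markers below it, and 1 symbol per array. The P450 enzymes, the aldehyde and ester enzymes and the glutathione S-transferases are high in adult replicate 3, as are the club, ciliated and epithelial markers, and the leukocyte markers are high in adult replicates 1 and 2.

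The plot of list medians by array places the enzyme classes beside these markers. In adult replicates 1, 2 and 3 the median departure of the P450 and flavin monooxygenase genes from their mean over all arrays was -0.90, -0.51 and 2.39 on the log2 scale, against 0.28, 0.11 and -0.50 in E18 replicates 1, 2 and 3. That of the superoxide dismutases and catalase was 0.95, -0.22 and 0.55 on the adult arrays, against -0.37, -0.33 and -0.32 on the E18 arrays. The P450 class thus varied mainly with adult replicate 3, and the dismutases and catalase did not.

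Of 120 further genes of these pathways, 91 were tested, and 2 rose, 5 fell and 84 did not pass. Of all genes tested, 1.41% were called higher and 4.57% lower. Osgin1, a growth inhibitor induced by oxidative stress, rose by 2.66 (adjusted p = 0.0379), and Akr1c13, an aldo-keto reductase, rose by 2.40 (adjusted p = 0.0213). Adh1, a retinol and alcohol dehydrogenase, fell by 3.80 (adjusted p = 0.0120). Cyp26b1, which degrades retinoic acid, fell by 2.91 (adjusted p = 0.0499), and Cyp2e1, which oxidizes ethanol, fell by 2.45 (adjusted p = 0.0173). Gpx7, a peroxidase of the endoplasmic reticulum, fell by 2.15 (adjusted p = 0.0376), and Abcg2, an efflux transporter, fell by 2.14 (adjusted p = 0.0345). All 7 had no overlap between the groups. Of the 91, adult arrays were all above E18 arrays for 11 and all below for 11, against 10.1% and 18.8% of all genes. Among the regulators 0 of 13 tested passed. Nfe2l2, which encodes Nrf2, had a difference of 0.48 (adjusted p = 0.336), Keap1, its inhibitor, one of 0.12 (adjusted p = 0.869), and Ahr, the aryl hydrocarbon receptor, one of 0.23 (adjusted p = 0.704). The receptors Nr1i2 and Nr1i3 were under the floor on 2 adult arrays and 3 E18 arrays and were not tested.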

How the data were processed

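Gene expression was measured on 6 Affymetrix mouse arrays, 3 of adult and 3 of E18 sorted lung cells, grouped by the labels, and no sample was left out. Per the labels' protocols, RNA was amplified in 2 cycles of cDNA synthesis and labelled with biotin. The deposited intensity of each probe set is on a linear scale. Per the submitters' processing notes it was made with MAS5 in Affymetrix Expression Console. Trimmed by 2% at either end, the mean of an array was 500.003 or 500.004, and the median signal was 70.2 to 112. The number of arrays limits the precision, and there is no counting depth.

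Values were log2 transformed with a pseudocount of 0 and no further normalization. Of 45101 probe sets, 64 were controls, 34945 had 1 symbol, 932 had several, the array's gene table did not list 9160, and 34741 matched a RefSeq gene by ID. Genes were tested where the probe set was at or above the 40th percentile of the array, called the floor, on at least 3 arrays. This rank is not a measured background, and 4858 genes did not reach it. A fold against a group under the floor on all its arrays is given as at least that size.

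The comparison used limma 3.58.1 (R 4.3.3), two-sided, with an intensity trend in the prior, and SE is the moderated standard error. The fit was tested on simulated data. Alternatives changed the scaling, the filter, the choice of probe set, the prior, the replicate block and the arrays included. The enzyme genes, the related genes, the marker lists and the split by adult replicate 3 were chosen with earlier results of these data known. All 41 enzyme genes measured were named. Values on each array were given for those that passed, did not overlap at 2-fold or more, or differed by at least 4-fold between adult replicate 3 and the mean of adult replicates 1 and 2, and for a few others beside them. Of the related genes those that passed and 5 regulators were named by rule, and 4 others were chosen after their values were seen.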

Additional observations from a re-analysis of the deposited data

How the results depend on the processing

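Over all arrays 798 genes changed, with 0 enzyme genes higher, 2 lower and 7 related genes changed. Leaving out 1 array moved these counts between 66 and 2770 genes, 0 and 2 enzyme genes higher, 0 and 8 lower, and 0 and 21 related genes. In replicates 1 and 2 only, 2996 genes changed, with 1 enzyme gene higher, 11 lower and 22 related genes. There Pon1 was at -2.21 (adjusted p = 0.0170), against 0.32 over all arrays. With the replicate number as a block, 492 genes changed, with 0 enzyme genes lower and 4 related genes, and Gpx3 had an adjusted p of 0.0510. Same-numbered samples had correlations of their deviations from the group means of 0.04, -0.14 and -0.06. With 3 arrays per group these values cannot decide whether the numbers pair the samples, and both replicates numbered 3 had high spike-in signals. Enzyme genes called lower were 1 each under quantile normalization, median centring, no filter and no intensity trend, Gpx3 in every case, and 1 enzyme gene, Cyp2b10, was called higher under median centring. A stricter filter, values set to the floor, and the mean of probe sets kept both lower calls.

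Alternatives chosen after seeing the data were replicate 3 as a block, with 2 enzyme genes higher, Cyp2b10 and Sult1d1, and 1 lower, Gpx3, and the average of E18 replicates 1 and 2 as 1 sample, with 63 genes changed, 0 enzyme genes lower and 0 related genes. The cause was not tested for any of these. Under quantile normalization 5 and under median centring 2 uncalled differences of enzyme genes changed sign. Of 17 enzyme genes with several probe sets above the floor, 8 had probe sets that disagreed in sign.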

Other observations

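Among the related genes, the other xenobiotic genes also had high values in adult replicate 3, and the antioxidant and NADPH genes and the regulators did not. That array was at least 4-fold above the mean of adult replicates 1 and 2 for 13 of 48 other xenobiotic genes. The count was 2 of 30 for other antioxidant and NADPH genes and 0 of 13 for regulators, against 10.0% of all genes. The median log2 difference from that mean was 0.90, -0.16 and -0.18 in these lists, against 0.24 over all genes. The following were chosen after their values were seen. Aldh3a1, an aldehyde dehydrogenase, had log2 signals of 4.39, 5.59 and 9.97 in adult replicates 1, 2 and 3, against 6.20, 5.87 and 5.80 in E18 replicates 1, 2 and 3. Aox3, an aldehyde oxidase, had 6.62, 8.11 and 12.12 on the adult arrays, against 8.69, 8.39 and 7.21 on the E18 arrays. Gsta2, an alpha-class glutathione S-transferase, had 3.34, 4.29 and 11.59 on the adult arrays, against 6.98, 6.84 and 6.05 on the E18 arrays. Adult replicate 3 was above all E18 arrays for these 3 genes. For Aldh3a1 and Gsta2 adult replicates 1 and 2 were below all E18 arrays, while for Aox3 adult replicate 2 lay within the E18 range. Aldh3a1 was under the floor on adult replicate 1 and E18 replicate 3. Gsta2 was under it on adult replicates 1 and 2 and E18 replicate 3. Sult1a1, a phenol sulfotransferase, had 5.87, 7.78 and 10.54 on the adult arrays, against 9.62, 9.30 and 9.00 on the E18 arrays, with the order of Aldh3a1 and Gsta2.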
